A study of Mus musculus with 19 samples.

Results

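A set of 9 genes that mark or direct the luminal progenitors and the alveolar cells of the mammary gland was followed: Elf5, Ehf, Sox10, Cebpb, Kit, Cd14, Aldh1a3, Lcn2 and Mfge8. A probe was taken where the scanner files give it the name of 1 of these genes. This rule, which uses no measured value, found 19 probes of the 56605 on the array. The 9 genes themselves were chosen with earlier results of these data known. All 9 genes passed the filter on dim probes, so they are 9 of the 20664 genes tested, and the probe used for each was well above background on all 19 arrays.

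The luminal layer of the mammary gland holds hormone-sensing cells, which carry ERα and the progesterone receptor, and hormone receptor-negative cells, which include the luminal progenitors. Progesterone acts on the hormone-sensing cells, and these pass the signal to their neighbours through secreted factors such as RANKL. The receptor-negative progenitors give rise to alveolar cells, a step in which the ETS factor ELF5 is required and which is best known from pregnancy. KIT, CD14 and the enzyme ALDH1A3 are widely used to mark these progenitors.

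RNA came from sorted CD24+CD29lo luminal cells (LCs) of 19 mice, with 1 single-colour Agilent array for each mouse. All mice were C57Bl/6N females, ovariectomized at 24 days of age by the labels (the study's methods give a slightly later day), and received 10 days later a pellet that acted for 21 days, to an age of about 8 weeks. E2 alone, as 0.01 mg in a 60-day pellet, was given to 4 wild-type mice (L50, L52, L67, L72) and 5 C451A-ERα mice (L4, L27, L51, L58, L76). The same E2 with 1.5 mg of progesterone (E2+Pg) was given to 5 wild-type mice (L21, L44, L47, L57, L62) and 5 C451A-ERα mice (L18, L53, L56, L61, L63). The values of a group are listed below in this order of its mice. C451A-ERα mice carry in the germline a point mutation of the cysteine of ERα at which palmitate, its lipid anchor to the plasma membrane, is attached. All cells of these mice carry it, so an effect of the mutation within LCs cannot be told apart here from one that reaches them from other tissues. The arrays do not read the mutated base. In sorted bulk RNA, fewer cells of a type and less RNA per cell cannot be told apart, and every level below is open to both readings. Values are the median signal of the brightest probe of a gene, in log2 and normalized by quantiles, so levels are compared between mice and never between genes.

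The arrays lay on 5 slides, each with 1 mouse of every group except slide 3, which had no wild-type E2 mouse. Each array had 26471 to 31258 probes well above background, and its signal at the 75th percentile was 248.5 to 490.0 against a background signal of 21.0 to 29.0. Any pair of arrays correlated with r between 0.953 and 0.992. C451A-ERα mice L4, L27 and L18 had the lowest array weights in limma (0.242, 0.285 and 0.303), which means that their genes deviated most from the group means. All 10 pan-luminal markers, among them Krt8 and Krt18, were well above background on all 19 arrays, as were Esr1 and Pgr, which encode ERα and the progesterone receptor. The 12 basal and myoepithelial markers, with Krt5 and Krt14, and the leukocyte gene Ptprc were also above background on all arrays. The array does not say how many such cells were in the sort. Defining markers of adipocytes (Adipoq, Plin1) and mast cells (Tpsab1, Ms4a2), the Schwann cell gene Cdh19 and the macrophage gene Fcgr1 were above background on 0 arrays.

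Progesterone raised Sox10 in LCs of both genotypes and Mfge8 in C451A-ERα LCs, and none of the 9 genes passed the test between genotypes. A gene was called when its fold change exceeded 1.5 and its two-sided limma p, adjusted by Benjamini-Hochberg over all genes, was under 0.05. With E2+Pg against E2, Sox10 was called higher in wild-type LCs (1 of 9 genes, where 0.59% of all genes were called higher). Sox10 and Mfge8 were called higher in C451A-ERα LCs (2 of 9, where 1.03% of all genes were called higher). In either direction 1.33% and 2.46% of all genes were called. Between genotypes none of the 9 was called under E2 (0.029% of all genes called, 0.00968% higher and 0.0194% lower) or under E2+Pg (0.00484%, lower), and none had an interaction of genotype and progesterone (0 of 20664 genes called). At an unadjusted limma p under 0.05, 2 of the 9 differed between genotypes under E2 (13.6% of all genes), 2 under E2+Pg (18.3%), 1 with progesterone in wild-type LCs (16.3%), 5 in C451A-ERα LCs (18.4%) and 1 in the interaction (9.37%). The comparisons share groups of mice, so their values are given side by side and not as separate support.

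All 9 log2 fold changes were above 0 with progesterone in C451A-ERα LCs, with a median of 0.66, where the median of all genes was 0.00. In wild-type LCs 8 of 9 were above 0, with a median of 0.24 and 0.04 for all genes. Under E2 no member had groups of the 2 genotypes that did not overlap, where 2.1% of all genes did so upward and 1.42% downward. Under E2+Pg 1 member, Cebpb, did so upward (0.905% of all genes) and none downward (1.7%). With progesterone 1 member, Sox10, did so upward in each genotype (5.82% of all genes in wild-type and 2.47% in C451A-ERα LCs) and none downward (2.86% and 2.58%). The medians between genotypes were 0.07 under E2 (all genes 0.03) and 0.17 under E2+Pg (all genes −0.03).

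**Figure D1:**
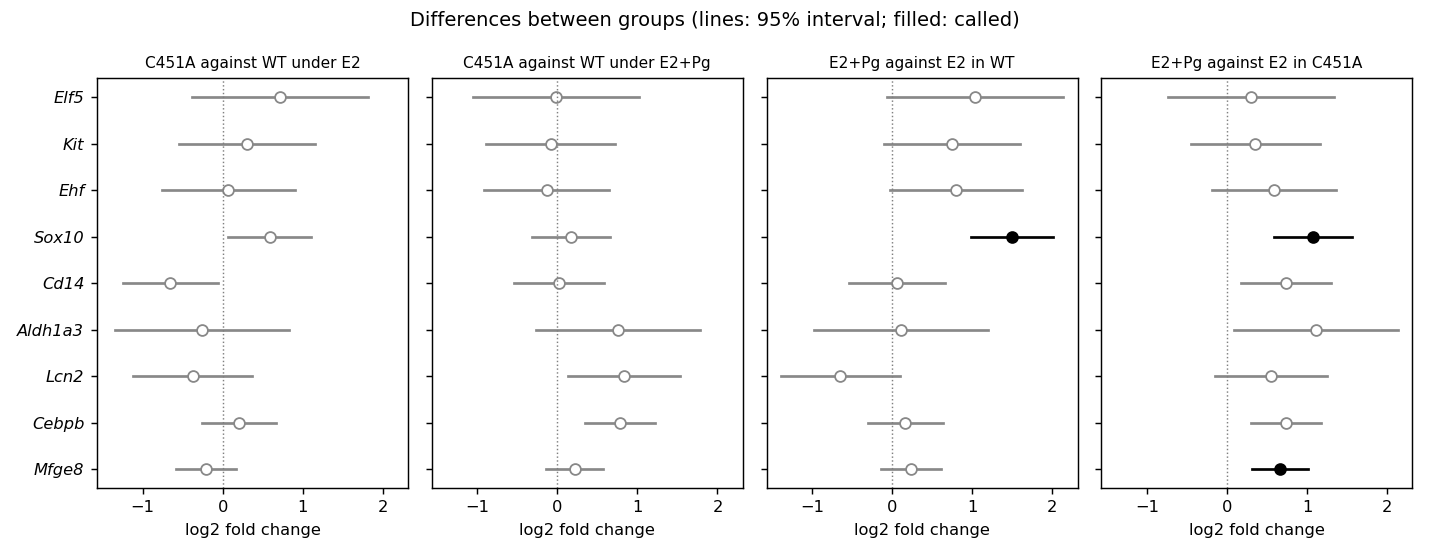
Log2 fold change of each of the 9 genes (rows) in the 4 comparisons (panels), with the 95% interval from limma as a line. Filled points are called, which are Sox10 in both progesterone comparisons (1.50 and 1.08) and Mfge8 in C451A-ERα LCs (0.66).

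Sox10, a transcription factor of neural crest cells that is also used by mammary progenitors, showed the clearest change (probe at chr15:78985343-78985402, minus strand, mm9). Its log2 signal under E2 was 10.43, 10.07, 10.60 and 11.18 in wild-type mice and 11.01, 11.20, 11.41, 11.32 and 10.84 in C451A-ERα mice. Under E2+Pg it was 12.40, 12.46, 12.00, 11.45 and 12.00 in wild-type mice and 12.49, 12.10, 11.60, 12.68 and 12.28 in C451A-ERα mice. Every mouse with progesterone lay above every mouse without it, of either genotype. Sox10 thus rose from 10.57 ± 0.46 (SD, n = 4) to 12.06 ± 0.40 (n = 5) in wild-type LCs, by 1.50 (standard error 0.25, adjusted p = 0.00701 from limma), which is 2.82-fold. In C451A-ERα LCs it rose from 11.16 ± 0.23 to 12.23 ± 0.41 (n = 5 each), by 1.08 (standard error 0.23, adjusted p = 0.0173 from limma), which is 2.11-fold. The groups did not overlap in either genotype (two-sided exact permutation test, p = 0.00794 each, the smallest these group sizes give). Within slides Sox10 was higher with progesterone on 4 of 4 slides (0.82 to 2.34) and on 5 of 5 slides (0.59 to 1.49).

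Under E2 the Sox10 mean was also higher in C451A-ERα than in wild-type LCs, by 0.59 (standard error 0.25), but this did not pass (adjusted p = 0.293 from limma). Under E2+Pg the genotypes differed by 0.17 (interval −0.32 to 0.66). The group means rose in the order wild-type E2, C451A-ERα E2, wild-type E2+Pg and C451A-ERα E2+Pg. The groups of the same treatment overlapped, and those of different treatment did not. Without wild-type mouse L52, which had the lowest Sox10 signal, the rise in wild-type LCs was 1.33 at an adjusted p of 0.0512 (limma), and without C451A-ERα mouse L61 the rise in C451A-ERα LCs was 0.97 at 0.0641. Without L4, L18 and L27 together the latter was 0.98 at 0.150 (limma). Sox10 is also expressed in Schwann cells. Of 7 Schwann cell and nerve markers 6 could be tested, none was called with progesterone, and their mean deviation was −0.02 ± 0.21 and 0.13 ± 0.23 (SD) in wild-type and −0.12 ± 0.15 and −0.003 ± 0.16 in C451A-ERα LCs under E2 and E2+Pg. Their part in the Sox10 values was not tested.

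**Figure D2:**
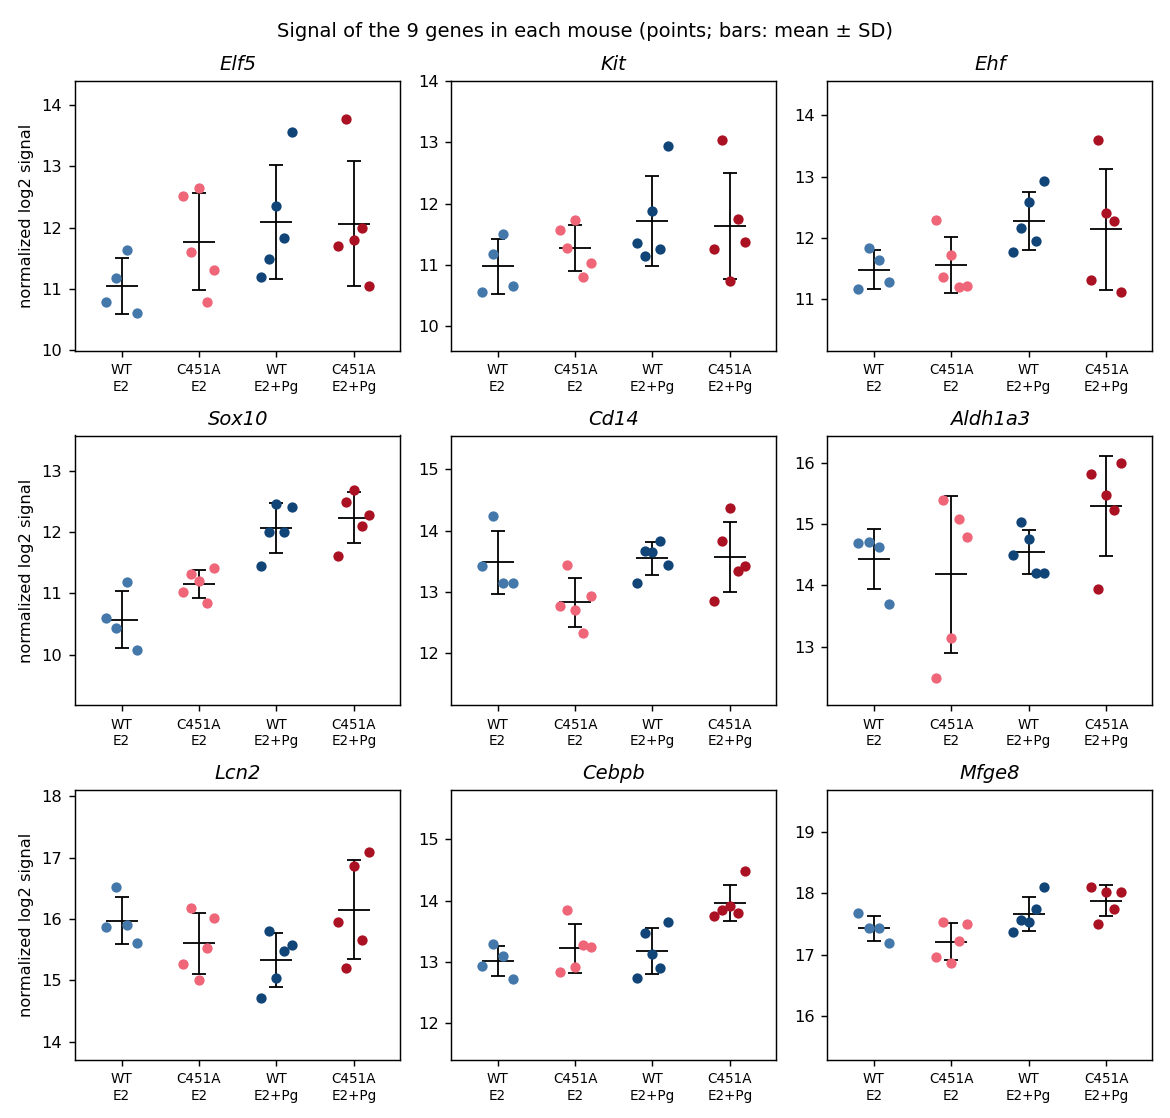
Normalized log2 signal of the 9 genes in each of the 19 mice (points) with the mean and SD of each group (bars), on an axis of equal span for each gene. Sox10 lies between 11.45 and 12.68 in the mice with progesterone and between 10.07 and 11.41 in those without, while Elf5, Kit, Ehf and Aldh1a3 spread widely within groups.

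Elf5, the ETS factor that drives alveolar differentiation, and Ehf, a related ETS factor of epithelia, lie close together on chromosome 2 (probes at chr2:103290958-103291017, plus strand, and chr2:103106827-103106886, minus strand, mm9). Kit is the receptor tyrosine kinase for stem cell factor (probe at chr5:76052394-76052453, plus strand). These genes moved together from mouse to mouse, so the promoters of Elf5 and Kit are shown here, as the 250 bases before a RefSeq start site on GRCm38.p6, 5′ to 3′. Capitals mark matches on either strand to AGGAAG (an ETS core with flanks), the NF-κB core (GGG and TCC, 4 bases apart), TTGCNNAA (C/EBP), TTCNNNGAA (STAT) or AGAACA (a half-site of the progesterone and glucocorticoid receptors). No matches overlap in the promoters printed.
Elf5, chr2:103411848-103412097, plus strand: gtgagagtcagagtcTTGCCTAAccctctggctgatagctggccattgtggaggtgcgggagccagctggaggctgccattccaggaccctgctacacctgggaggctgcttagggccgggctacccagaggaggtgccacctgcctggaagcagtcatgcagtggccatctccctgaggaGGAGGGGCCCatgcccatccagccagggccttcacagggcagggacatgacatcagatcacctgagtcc
Kit, chr5:75574737-75574986, plus strand: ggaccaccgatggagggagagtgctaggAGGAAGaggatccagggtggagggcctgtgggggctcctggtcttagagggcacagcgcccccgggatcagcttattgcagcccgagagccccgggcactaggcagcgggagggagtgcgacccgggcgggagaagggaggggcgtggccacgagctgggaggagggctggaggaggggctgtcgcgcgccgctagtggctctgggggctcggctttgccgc
The Elf5 promoter holds 1 match to the C/EBP letters and 1 to the NF-κB letters, and none to the ETS letters. A second Elf5 start site in the table has 1 C/EBP match, and the Kit promoter has 1 ETS match. Of all 32851 promoters of this length, 29.5% hold the ETS letters, 16.5% the NF-κB letters and 9.56% the C/EBP letters. No printed promoter matched the STAT (7.02% of all) or half-site letters (16.1%). The promoter table held 5 of the 9 genes, and Ehf, Sox10, Cd14 and Aldh1a3 were not matched in it.

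The Elf5 signal under E2 was 11.17, 10.61, 10.79 and 11.64 in wild-type mice and 12.51, 12.64, 11.30, 11.61 and 10.79 in C451A-ERα mice. Under E2+Pg it was 13.56, 12.36, 11.83, 11.20 and 11.49 in wild-type mice and 13.77, 12.00, 11.71, 11.80 and 11.05 in C451A-ERα mice. Single mice stood out, L21 in wild-type and L18 in C451A-ERα LCs, and all 4 groups overlapped. The wild-type means were 11.05 ± 0.46 (SD, n = 4) under E2 and 12.09 ± 0.93 (n = 5) under E2+Pg, a difference of 1.03 (95% interval −0.07 to 2.13, adjusted p = 0.338 from limma), with the E2+Pg mouse higher on 4 of 4 slides. In C451A-ERα LCs the means were 11.77 ± 0.79 and 12.06 ± 1.02 (n = 5 each), a difference of 0.29 (interval −0.74 to 1.33). Between genotypes Elf5 differed by 0.72 (interval −0.38 to 1.82) under E2 and by −0.02 (interval −1.06 to 1.01) under E2+Pg.

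Kit ranged from 10.56 to 11.50 in wild-type E2 mice, from 10.81 to 11.73 in C451A-ERα E2 mice, from 11.15 to 12.95 in wild-type E2+Pg mice and from 10.73 to 13.04 in C451A-ERα E2+Pg mice. Its highest values were again those of L21 (12.95) and L18 (13.04). Progesterone went with differences of 0.74 (interval −0.11 to 1.59) in wild-type and 0.35 (interval −0.45 to 1.15) in C451A-ERα LCs, neither past the test. Between genotypes it differed by 0.31 (interval −0.55 to 1.16) under E2 and by −0.09 (interval −0.89 to 0.72) under E2+Pg. Kit is also a mast cell gene. Of 8 mast cell markers 5 could be tested and none was called in any comparison.

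Ehf had group means of 11.48 ± 0.32 (SD, n = 4) and 12.28 ± 0.47 (n = 5) in wild-type LCs under E2 and E2+Pg, and of 11.56 ± 0.46 and 12.14 ± 0.99 (n = 5 each) in C451A-ERα LCs. The wild-type difference of 0.79 (interval −0.03 to 1.62) had an exact permutation p of 0.0317 and an adjusted p of 0.326 from limma, and the sign was the same on 4 of 4 slides. C451A-ERα mouse L18, at 13.59, was the highest of all. The difference in C451A-ERα LCs was 0.58 (interval −0.19 to 1.36). Between genotypes Ehf differed by 0.07 (interval −0.75 to 0.90) under E2 and by −0.14 (interval −0.91 to 0.64) under E2+Pg.

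Cd14, the co-receptor for bacterial lipopolysaccharide, was 14.23, 13.15, 13.42 and 13.15 in wild-type mice and 12.78, 12.70, 12.94, 13.44 and 12.33 in C451A-ERα mice, under E2 alone. The C451A-ERα mean under E2, 12.84 ± 0.40 (SD, n = 5), was the lowest of the 4 groups, against 13.49 ± 0.51 (n = 4) in wild-type LCs. The difference of −0.65 (interval −1.25 to −0.06) did not pass (adjusted p = 0.317 from limma, exact permutation p = 0.0635), though the C451A-ERα mouse was lower on 4 of 4 slides. With progesterone Cd14 was 13.44, 13.66, 13.83, 13.14 and 13.67 in wild-type mice and 13.83, 13.35, 12.86, 14.38 and 13.43 in C451A-ERα mice, and the groups overlapped. Both genotypes were then at a like mean, 13.55 ± 0.27 and 13.57 ± 0.57 (n = 5 each), 0.02 apart (interval −0.54 to 0.58). In C451A-ERα LCs this was 0.73 above E2 alone (adjusted p = 0.142 from limma), with a higher E2+Pg mouse on 5 of 5 slides, and in wild-type LCs 0.06 above. The second Cd14 probe gave −0.73 for genotype under E2 and 0.75 for progesterone in C451A-ERα LCs. Macrophages and neutrophils express Cd14 too. Of their 12 markers 11 could be tested, none was called between genotypes under E2, and their mean deviation was 0.12 ± 0.14 in wild-type and −0.01 ± 0.14 in C451A-ERα LCs under E2. Ly6g was lower with progesterone in C451A-ERα LCs (−1.59, adjusted p = 0.0154 from limma). Their part in the Cd14 values was not tested.

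Aldh1a3, which makes retinoic acid, ranged from 12.49 to 16.00 in C451A-ERα mice (probe at chr7:73535785-73535844, minus strand, mm9). It was 14.71, 13.70, 14.70 and 14.63 in wild-type mice and 12.49, 13.14, 14.78, 15.39 and 15.09 in C451A-ERα mice, under E2 alone. Under E2+Pg it was 14.20, 14.76, 14.20, 14.50 and 15.03 in wild-type mice and 13.94, 15.22, 15.82, 15.48 and 16.00 in C451A-ERα mice. Mice L4, L27 and L18, the 3 of lowest array weight, held the lowest values among the C451A-ERα mice. The 4 groups overlapped, and the widest difference, 1.11 with progesterone in C451A-ERα LCs (interval 0.09 to 2.14), did not pass (adjusted p = 0.230 from limma). Under E2+Pg C451A-ERα LCs were 0.75 above wild-type LCs (interval −0.27 to 1.78, adjusted p = 0.386 from limma). Without L4, L18 and L27 this difference was 1.09 (adjusted p = 0.00784 from limma), but that setting called 3004 of 20664 genes in this comparison instead of 1, so the call is not particular to Aldh1a3.

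Lcn2 encodes lipocalin 2, a secreted protein that binds bacterial siderophores, and Cebpb a bZIP factor needed for alveolar development. These genes also varied together from mouse to mouse, and their promoters are shown in the same way.
Lcn2, chr2:32387740-32387989, minus strand: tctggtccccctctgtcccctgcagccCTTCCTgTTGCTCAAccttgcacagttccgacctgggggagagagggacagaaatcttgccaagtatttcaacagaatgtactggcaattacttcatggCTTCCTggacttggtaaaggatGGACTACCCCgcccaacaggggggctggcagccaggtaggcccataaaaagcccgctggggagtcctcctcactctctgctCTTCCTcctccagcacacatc
Cebpb, chr2:167688665-167688914, plus strand: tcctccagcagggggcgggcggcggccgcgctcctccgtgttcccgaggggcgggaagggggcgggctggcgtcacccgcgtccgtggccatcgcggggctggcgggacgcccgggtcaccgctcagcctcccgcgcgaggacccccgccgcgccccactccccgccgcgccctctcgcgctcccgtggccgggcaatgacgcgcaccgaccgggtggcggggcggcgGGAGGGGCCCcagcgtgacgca
The Lcn2 promoter holds 3 matches to the ETS letters, 1 to the C/EBP letters and 1 to the NF-κB letters, and the Cebpb promoter 1 to the NF-κB letters. A match says only that the letters are there.

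Cebpb (probe at chr2:167515828-167515887, plus strand, mm9) was 13.29, 12.73, 12.94 and 13.10 in wild-type mice and 12.84, 12.92, 13.24, 13.84 and 13.27 in C451A-ERα mice, under E2 alone. Under E2+Pg it was 13.65, 13.12, 12.91, 12.74 and 13.46 in wild-type mice and 13.85, 13.80, 13.74, 13.91 and 14.48 in C451A-ERα mice. With progesterone every C451A-ERα mouse lay above every wild-type mouse. The difference was 0.78 (standard error 0.21, interval 0.34 to 1.22), or 1.72-fold, from 13.18 ± 0.38 to 13.96 ± 0.30 (SD, n = 5 each), and was found on 5 of 5 slides (0.39 to 0.999). The exact permutation p was 0.00794, but over all genes the adjusted p was 0.118 (limma), so Cebpb was not called. Without L18 it was 0.81 at an adjusted p of 0.0455 (limma), in a setting that called 1096 of 20664 genes instead of 1. Without L21 it was 0.90 at 0.0450 (232 genes called), and without L4, L18 and L27 0.81 at 0.0162 (3004 genes called). With progesterone against E2, Cebpb differed by 0.74 in C451A-ERα LCs (adjusted p = 0.0631 from limma, higher on 5 of 5 slides) and by 0.16 in wild-type LCs. The former was called with the authors' value table (0.0474), with probes above background on all arrays (0.0488) and without L58 (0.0184). The interaction of 0.57 did not pass (adjusted p = 0.471 from limma).

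Lcn2 (probe at chr2:32240199-32240258, minus strand, mm9) was 16.52, 15.61, 15.86 and 15.90 in wild-type mice and 15.26, 15.01, 16.01, 16.18 and 15.53 in C451A-ERα mice, under E2 alone. Under E2+Pg it was 15.58, 15.04, 15.48, 14.71 and 15.80 in wild-type mice and 15.20, 15.66, 15.94, 16.86 and 17.09 in C451A-ERα mice. The wild-type values were lower with progesterone on 4 of 4 slides, and the C451A-ERα values higher on 4 of 5. The wild-type difference was −0.65 (interval −1.39 to 0.09, adjusted p = 0.367 from limma, exact permutation p = 0.0397), and that in C451A-ERα LCs 0.55 (interval −0.15 to 1.25, adjusted p = 0.400). The test of the difference between the effects, the interaction, gave 1.20 (interval 0.18 to 2.22) at an unadjusted p of 0.0238 and an adjusted p of 0.471 (limma), so a different effect of progesterone in the genotypes was not established. Under E2+Pg Lcn2 was 0.83 higher in C451A-ERα than in wild-type LCs (interval 0.13 to 1.53), at an adjusted p of 0.226 (limma). Without L4, L18 and L27 it was 1.06 (adjusted p = 0.0229 from limma), 1 of 3004 calls over all genes in that setting. The second Lcn2 probe gave 0.96 for this comparison and 1.08 for the interaction.

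Mfge8, the milk fat globule protein that bridges apoptotic cells and integrins, had a signal of 16.87 to 18.11 (probe at chr7:86278689-86278748, minus strand, mm9). The scale ends at 18.66, and quantile normalization leaves few distinct values near its end, so several mice share one. It was 16.96, 16.87, 17.50, 17.54 and 17.22 in C451A-ERα mice under E2, and 17.50, 17.74, 18.11, 18.02 and 18.02 under E2+Pg. The groups overlapped only through L18. Mfge8 rose from 17.22 ± 0.31 to 17.88 ± 0.25 (SD, n = 5 each), by 0.66 (standard error 0.17, adjusted p = 0.0407 from limma, exact permutation p = 0.0159), which is 1.58-fold, with a higher E2+Pg mouse on 4 of 5 slides. With the slide as a block the adjusted p was 0.0780, and leaving out single mice moved it past 0.05 for 11 of the 19 mice, up to 0.127 without L27. In wild-type LCs the means were 17.43 ± 0.20 (n = 4) and 17.67 ± 0.28 (n = 5), a difference of 0.24 (interval −0.14 to 0.61), and the interaction of 0.43 did not pass (adjusted p = 0.471 from limma).

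The genes did not vary as 1 block between mice. After the group means were removed, 36 pairs of the 9 genes were correlated over the 19 mice, with 100000 permutations within groups and Benjamini-Hochberg adjustment over the 36 pairs. Pearson's r ranged from −0.66 to 0.90 with a median of 0.27, and 8 pairs passed an adjusted p of 0.05, of which 6 were positive. Every r shares the 19 arrays, so the pairs are not independent of each other.

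Elf5 went with Kit (Pearson r = 0.898, permutation p = 7e-05, adjusted p = 0.00126, Spearman rho = 0.804, permutation p = 0.00024) and with Ehf (r = 0.863, permutation p = 2e-05, adjusted p = 0.00072, rho = 0.851, permutation p = 0.00013). Kit and Ehf were related at r = 0.735 (permutation p = 0.00355, adjusted p = 0.0223, rho = 0.632). Without the 2 mice farthest from the median on the x axis, r was 0.770 for Elf5 and Kit (without L18 and L21), 0.776 for Elf5 and Ehf and 0.636 for Kit and Ehf (both without L18 and L63). With slide means removed as well, the values were 0.933, 0.867 and 0.776. These genes were thus high in the same mice, foremost L18 and L21.

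Lcn2 went with Cebpb (r = 0.732, permutation p = 0.00034, adjusted p = 0.00408, rho = 0.795), with Mfge8 (r = 0.694, permutation p = 0.00315, adjusted p = 0.0223, rho = 0.746) and with Aldh1a3 (r = 0.637, permutation p = 0.00746, adjusted p = 0.0337, rho = 0.651). Without the 2 mice farthest from the median, r was 0.624 (without L58 and L63), 0.661 (without L18 and L21) and 0.519 (without L18 and L63), and with slide means removed 0.690, 0.719 and 0.665. The pairs of the latter genes among themselves missed the threshold, with r = 0.641 for Aldh1a3 and Mfge8 (permutation test, adjusted p = 0.0535), 0.614 for Cebpb and Mfge8 (0.0566) and 0.593 for Aldh1a3 and Cebpb (0.0578). Aldh1a3 was low where Elf5 (r = −0.659, permutation p = 0.00748, adjusted p = 0.0337, rho = −0.626) and Ehf (r = −0.653, permutation p = 0.00371, adjusted p = 0.0223, rho = −0.593) were high. By rank these inverse relations had adjusted p of 0.0537 and 0.0593. They rest on mice L4, L18 and L27: without these, r was −0.17 with Elf5 and −0.22 with Ehf, and Kit and Ehf (0.502), Lcn2 and Mfge8 (0.491) and Lcn2 and Aldh1a3 (0.387) also missed the threshold. Elf5 and Kit (0.835), Elf5 and Ehf (0.753) and Lcn2 and Cebpb (0.747) passed it. Sox10 and Cd14 were in none of the 8 pairs.

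**Figure D3:**
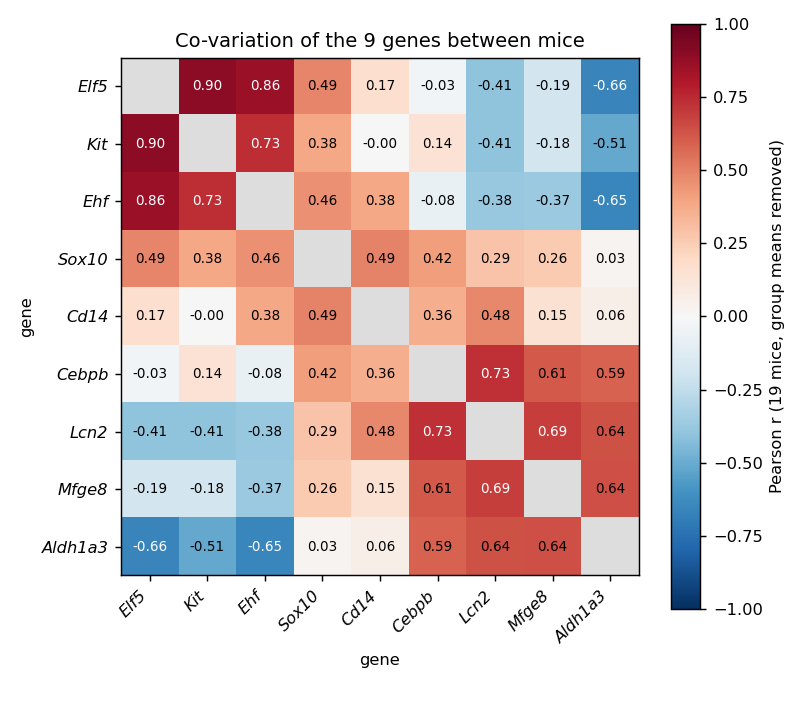
Pearson r between the 9 genes over 19 mice after removal of the group means, on a colour scale from −1 to 1. The 3 pairs of Elf5, Kit and Ehf have r from 0.73 to 0.90, and the 6 pairs of Lcn2, Cebpb, Mfge8 and Aldh1a3 from 0.59 to 0.73, of which the 3 with Lcn2 passed the adjusted threshold.

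**Figure D4:**
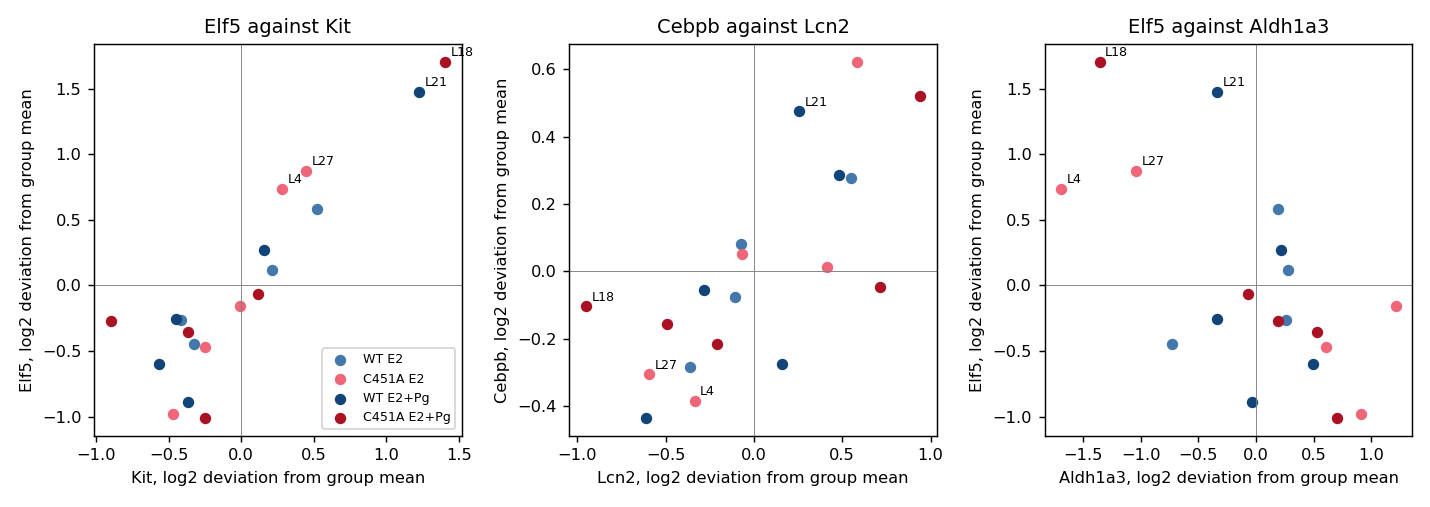
Deviation of each mouse from its group mean, in log2 signal, for Elf5 against Kit (r = 0.898), Cebpb against Lcn2 (r = 0.732) and Elf5 against Aldh1a3 (r = −0.659), coloured by group. Mice L18 and L21 lie at the top right of the Elf5 and Kit panel, and L4, L18 and L27 at the upper left of the Elf5 and Aldh1a3 panel.

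The 12 other luminal progenitor genes were read in the same fit. With progesterone 1 of 12 was called higher in wild-type LCs (0.59% of all genes) and 2 of 12 in C451A-ERα LCs (1.03%). None was called lower (0.736% and 1.44% of all genes). Between genotypes none was called (0.029% of all genes under E2 and 0.00484% under E2+Pg). Rspo1, which encodes the Wnt agonist R-spondin 1, rose from 7.17 ± 0.53 (SD, n = 4) to 12.14 ± 0.34 (n = 5) in wild-type LCs, by 4.97 (adjusted p = 0.00632 from limma), and from 7.46 ± 1.42 to 10.71 ± 2.02 (n = 5 each) in C451A-ERα LCs, by 3.25 (adjusted p = 0.0263). Foxc1, a forkhead factor, rose from 9.19 ± 0.10 to 10.44 ± 0.45 (n = 5 each) in C451A-ERα LCs, by 1.25 (adjusted p = 0.00336 from limma), while the wild-type difference of 0.85 missed the threshold (adjusted p = 0.0546). With progesterone the medians of the 12 were −0.28 in wild-type (all genes 0.04) and 0.45 in C451A-ERα LCs (all genes 0.00). Those above 0 were 3 of 12 in wild-type and 9 of 12 in C451A-ERα LCs. The mean deviation of the 12 in wild-type LCs rose all the same, from −0.26 to 0.07, but only through Rspo1. Its rise of 4.97 was larger than the summed rise of the 12, so the mean of the others did not rise. Of 18 milk and secretory genes and 15 alveolar regulators none was called in any comparison, with medians of 0.30 and −0.01 for progesterone in wild-type and of 0.18 and 0.01 in C451A-ERα LCs. L18 had the highest mean deviation of the milk genes, 1.09, and of the basal markers, 0.83. Of 25 partners and relatives of the 9 genes, such as the KIT ligand Kitl, the CD14 partner Tlr4 and the C/EBP factor Cebpd, 22 could be tested and none was called. No basal, pan-luminal, fibroblast, endothelial, lymphocyte or adipocyte marker was called in any comparison.

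Of 12 hormone-sensing markers, 5 were called lower with progesterone in C451A-ERα LCs (1.44% of all genes), with a median of −1.10 and 1 of 12 above 0. In wild-type LCs 0 of 12 were called (0.736% of all genes called lower), with a median of −0.67 and 2 of 12 above 0. Those called were Ly6a (−1.88), Cd200 (−1.24), Foxa1 (−1.19), Prom1 (−1.16) and Pgr (−0.99), at adjusted p of 0.0176, 0.0319, 0.0134, 0.00916 and 0.0360 from limma. The interaction was called for none of the 12. With the slide as a block Pgr (adjusted p = 0.0677), Cd200 (0.0605) and, of the genes above, Rspo1 in C451A-ERα LCs (0.0509) missed the threshold of limma. Over 30 alternative settings the call was lost in 13 for Pgr, 12 for Cd200, 2 for Foxa1 and 1 each for Ly6a and Prom1. Without L4, L18 and L27 it was lost for Pgr (adjusted p = 0.203 from limma), Foxa1 (0.157), Cd200 (0.138) and Prom1 (0.0883). That setting called 112 of 20664 genes with progesterone in C451A-ERα LCs, instead of 509. The mean deviation of the 12 markers per mouse was 0.27 ± 0.32 (SD, n = 4) in wild-type E2, 0.59 ± 0.15 (n = 5) in C451A-ERα E2, −0.40 ± 0.20 (n = 5) in wild-type E2+Pg and −0.41 ± 0.40 (n = 5) in C451A-ERα E2+Pg. For the 9 genes it was −0.32 ± 0.29, −0.27 ± 0.22, 0.12 ± 0.35 and 0.40 ± 0.21 in the same order. Between E2 and E2+Pg the means of the 9 genes and of the hormone-sensing markers thus went opposite ways in both genotypes. Between genotypes under E2+Pg the marker means differed by less than their SD. Those of the 9 genes differed by less than the wild-type SD, but by more than the C451A-ERα SD. The part of cell shares in these values was not tested. Within groups, none of 9 relations of a gene to the hormone-sensing mean had an adjusted p under 0.05 by Pearson's r. Cd14 came nearest (r = −0.673, permutation p = 0.0112, adjusted p = 0.101), and by rank it passed (rho = −0.718, permutation p = 0.00353, adjusted p = 0.0318). Without L72 and L56 its r was −0.576.

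**Figure D5:**
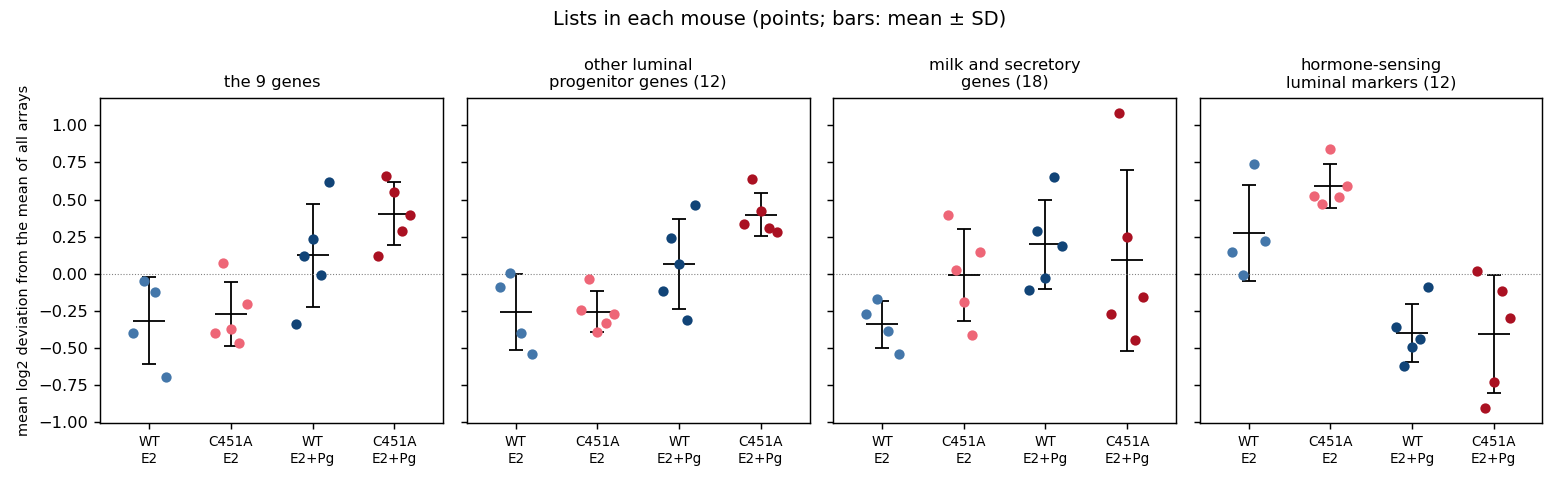
Mean log2 deviation from the mean of all arrays, in each mouse (points) with the mean and SD of each group (bars), for the 9 genes, 12 other luminal progenitor genes, 18 milk and secretory genes and 12 hormone-sensing markers. The hormone-sensing markers lie at 0.27 and 0.59 under E2 and at −0.40 and −0.41 under E2+Pg, and the 9 genes at −0.32 and −0.27 against 0.12 and 0.40. Of the 12 other progenitor genes only 3 were higher with progesterone in wild-type LCs, Rspo1 by the most.

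Acute phase genes and NF-κB targets, a class to which Lcn2 belongs, were followed as a list of 16. With progesterone their median was −0.48 in wild-type LCs (4 of 16 above 0) and 0.18 in C451A-ERα LCs (12 of 16). In each genotype 1 of 16 was called higher (0.59% and 1.03% of all genes). It was C3, a complement component, higher by 2.07 in wild-type (adjusted p = 0.0411 from limma) and by 1.92 in C451A-ERα LCs (adjusted p = 0.0291). With the slide as a block the wild-type call was lost (adjusted p = 0.0975 from limma). Over 30 alternative settings the wild-type call was lost in 15 (adjusted p up to 0.119 from limma). The C451A-ERα call was lost in 7 (up to 0.116). No gene of the list was called lower or between genotypes, although its median was −0.89 between genotypes under E2 (all genes 0.03). The 16 immediate early and dissociation genes, which respond to tissue handling, had 0 called genes and a median of 0.51 between genotypes under E2+Pg, with 16 of 16 above 0. With progesterone their median was −0.53 in wild-type LCs (2 of 16 above 0) and 0.00 in C451A-ERα LCs (8 of 16). In the interaction it was 0.44 (15 of 16 above 0). Their mean deviation lay between −1.002 and 0.42 in wild-type and between −0.21 and 0.52 in C451A-ERα mice under E2+Pg. Cebpb and Lcn2 differed in the same direction as this list between genotypes under E2+Pg and in the interaction. With progesterone in wild-type LCs Lcn2 did so too (−0.65), but Cebpb did not (0.16). The part of handling in the values of Cebpb and Lcn2 was not tested.

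Where a gene had further probes, these gave the same direction as the probe used in each of the comparisons that passed 0.5 on the log2 scale, for Aldh1a3, Cd14, Ehf, Lcn2 and Kit. The second Elf5 probe was above background on 6 arrays only. For the 4 Ehf probes the small difference between genotypes under E2 lay on either side of 0 (−0.12 to 0.25).

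The genes closest to each member over all 19 arrays, by Pearson's r of the normalized signal and without regard to group, were Tjp3 (0.966), Pald1 (0.954) and Kank4 (0.953) for Elf5, and BC006965 (0.916), Map3k1 (0.914) and Nfix (0.913) for Kit. For Ehf they were 4632415L05Rik (0.938), Slc5a9 (0.936) and Tspyl1 (0.927), and for Sox10 Dlx5 (0.934), Heyl (0.931) and Tns3 (0.929). For Aldh1a3 they were Efhd2 (0.971), Rab7b (0.970) and Lmna (0.958), and for Cd14 Hacd2 (0.900), Ccrl2 (0.841) and Arhgap8 (0.832). For Lcn2 they were Creb3l1 (0.947), Jdp2 (0.919) and Slc39a14 (0.880), for Cebpb Smpdl3a (0.915), Cd81 (0.899) and Msl2 (0.893), and for Mfge8 9530053A07Rik and Fcgbp (0.891 each). They were picked as the highest of all 20664 genes and are a description.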

How the data were processed

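Scanner files of 19 single-colour Agilent arrays (SurePrint G3 Mouse, Cy3) were used, 1 per mouse. Per the file headers, Feature Extraction 10.10.1.1 made the intensity values and the background flags, and probes carry mm9 positions. A further table of log2 values was deposited by the authors, who filtered the median signals, corrected for washing bath and labelling batches and normalized by quantiles. It served as an alternative. Those batches are not in the labels, so only the slide could be checked.

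Here, outlier spots (1370) were left out, spots of a probe were averaged, and median signals were put on the log2 scale and quantile normalized. Probes well above background on at least 4 arrays were kept, with the brightest per gene (20664 genes). Group means were fitted over all 19 arrays with limma 3.58.1 in R 4.3.3, with Benjamini-Hochberg adjustment over all genes. Calls needed a fold above 1.5 and an adjusted p under 0.05. Genes outside the 9 are named by rule: up to 4 called genes of a list and comparison with the largest change, the 3 genes most alike to each member, and Esr1, Pgr, Krt8, Krt18, Krt5, Krt14 and Ptprc as checks of the sort. Undetected defining markers and 3 partners of the members are named besides, without values. Exact permutation tests ran over all 126 or 252 splits of the mice of a comparison, and relations over 100000 permutations within groups. Promoters are RefSeq sequences of GRCm38.p6, and probe positions were not converted between builds. The fit was tested on simulated data with independent noise, for E2+Pg against E2 in C451A-ERα LCs. It found 68% of the changes of 1 log2 unit and 94% of those of 2. The 9 genes and all lists were chosen with earlier results of these data known. The number of arrays limits the precision. The labels do not say whether mice shared a litter.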

Additional observations from a re-analysis of the deposited data

Results flagged for a closer look

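Single mice stood far from the others of their group for 4 of 72 gene and group sets tested, over 18 genes, by the gap to the nearest mouse as a share of the group's range. Chance flags about 5% of such sets. Aldh1a3 was 13.70 in wild-type E2 mouse L52, below the next mouse at 14.63 (share 0.921). Cebpb was 14.48 in C451A-ERα E2+Pg mouse L63, above the next at 13.91 (share 0.769). C3 was 13.16 in C451A-ERα E2 mouse L4, against 11.98 in the next (share 0.787). Ly6a was 14.54 in wild-type E2 mouse L72, against 13.97 in the next (share 0.862).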

How the results depend on the processing

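Over 30 alternative settings the 45 results of the 9 genes gave 1341 values. Of these 1310 kept their side of the threshold, 19 lost a call and 12 gained one, and no called value changed sign. Differences that were not called changed sign in 39. The count of called members with progesterone in C451A-ERα LCs was 1 instead of 2 (Sox10 each time) with no filter on background, with the slide as a block, with array weights and with only the groups compared. It was 3, with Cebpb added, with the authors' value table (Cebpb 0.73, adjusted p = 0.0474 from limma) and with probes above background on all arrays (0.74, 0.0488). Array weights gave 2 calls between genotypes under E2 (Cd14, Sox10), 1 under E2+Pg (Cebpb) and 2 with progesterone in wild-type LCs (Elf5, Sox10), but also 2237, 2622 and 1880 calls over all 20664 genes, against 6, 1 and 274 without weights, so little can be read from the members. Without L4, L18 and L27, a choice made after seeing the data, 3 members were called between genotypes under E2+Pg (Aldh1a3 1.09, adjusted p = 0.00784, Lcn2 1.06, 0.0229, and Cebpb 0.81, 0.0162, from limma) and 0 with progesterone in C451A-ERα LCs. Over all 20664 genes this setting called 3004 instead of 1 and 112 instead of 509. The cause was not tested.

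Leaving out 1 mouse at a time, the members called ranged from 0 to 0 between genotypes under E2, from 0 to 1 under E2+Pg (1 without L18 or L21), from 0 to 1 with progesterone in wild-type LCs (0 without L52) and from 0 to 3 in C451A-ERα LCs (0 without L61, 3 without L58, with Cebpb added), and were 0 for the interaction. Over all genes these counts ranged from 0 to 1044, 1 to 1096, 28 to 577 and 200 to 973. The call of Mfge8 was lost in 16 of 30 settings, with adjusted p from 0.0210 to 0.151, and that of Sox10 in 1 of 30 in wild-type (0.000484 to 0.0512) and 2 of 30 in C451A-ERα LCs (0.00802 to 0.150). No paired analysis was possible because the replicate numbers were given in accession order and pair no mice. The slide block is the nearest to it. Repeated with 20000 permutations, 130 of 144 values of the relations kept their side of the threshold, 5 lost and 9 gained it.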
